A study of Mus musculus with 6 samples.

Results

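The genes described here mark fat cells or build triglyceride: the adipocyte markers Adipoq, Cfd, Retn, Plin1, Plin4, Fabp4, Cidec and Pparg and the lipid enzymes Scd1 and Dgat2. Members were all probe sets whose only platform symbol was among these 10 genes. A probe set joins several short oligonucleotides that read 1 transcript, mostly close to its 3' end, into 1 signal per array. There were 13 such probe sets for 8 of the 10 genes, of 22690 on the array. Cfd and Plin1, for which no probe set carried the symbol alone, were not analysed here.

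Total RNA came from frozen superficial masseter, a jaw-closing muscle, and from tibialis anterior, a muscle of the lower leg. The animals were normal adult female C57Bl/6 mice aged 6 months, with no treatment or engineered allele given. Each muscle had 3 samples, numbered 1 to 3, on 1 array each, and the study compared masticatory with limb muscle. The labels do not state whether the samples were taken from different animals, so the spread behind the p-values may be partly technical.

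White adipocytes hold triglyceride in a large lipid droplet and secrete adipokines into the blood. The nuclear receptor encoded by Pparg drives their formation and many of their genes. Triglyceride is made by adding fatty acids to a glycerol backbone, and it is coated in the droplet by perilipins. Skeletal muscle contains such cells between its fibres, and muscle fibres also keep small droplets of their own.

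The masseter carried more signal than the tibialis anterior for the adipokine gene Adipoq and for the enzyme genes Dgat2 and Scd1, each by a factor between 2.28 and 2.54. For both enzymes this is the brighter probe set, and the Scd1 signals overlapped between the muscles. The other Dgat2 probe set was 1.51-fold higher and did not pass, and the other Scd1 probe set was too dim to test. Of the 13 probe sets, 11 representing 7 genes were bright enough to test, with a mean log2 signal at or above 4.84, which is a signal of 28.6. Of these 11, 3 passed an adjusted p of 0.05 and were higher in the masseter, and 0 were lower. Over all 13576 probe sets tested, 1.18% passed in either direction, 0.56% higher in the masseter and 0.619% lower. By group, 1 of 8 marker probe sets and 2 of 3 enzyme probe sets passed. The other markers tested did not pass: Cidec and Retn had differences of 1.18 and 0.58, each above 0 in 3 of 3 pairs, Plin4 had 0.05, and the 4 Fabp4 probe sets ran from -0.28 to 0.27. In a fit that leaves out the pairing of samples by number, 1 of the 11 passed, the brighter Dgat2 probe set. In that fit 138 of the 13576 passed in all. With a variance estimate that ignores signal level (limma's eBayes without trend) 0 of the 11 passed, when 13 of the 13576 passed in all.

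The deposited signal had a 2% trimmed mean of 150.1 on all 6 arrays, and array medians ran from 44.1 to 50.7. Precision is limited by having 3 arrays per muscle. Each difference is the log2 level in the masseter minus that in the tibialis anterior, with its standard error (SE) in limma. The fit pairs samples of the same number, and p-values are adjusted over all probe sets tested. Mean signals are taken on the log2 scale unless called arithmetic. Signals of different probe sets are not comparable in level.

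**Figure D1:**
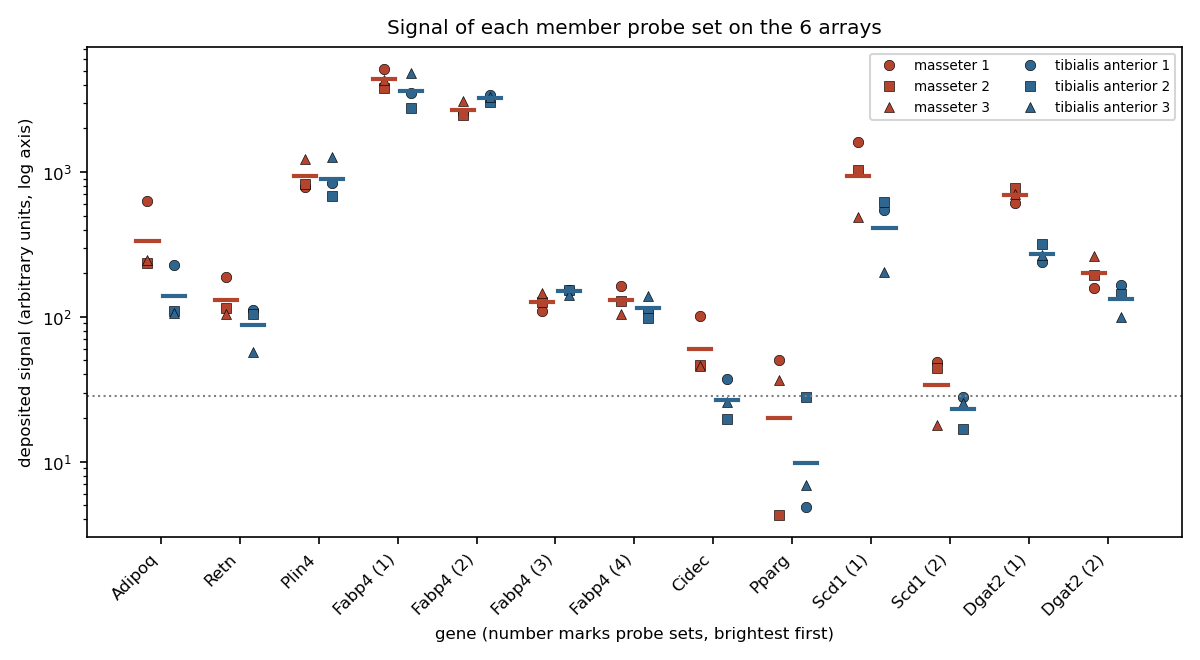
Deposited signal (log axis, arbitrary units) of the 13 probe sets, with masseter in red and tibialis anterior in blue. Each point is 1 array, its shape the sample number, bars are means on the log2 scale and the dotted line is the filter level of 28.6. The masseter and tibialis anterior points of Dgat2 (1) and Adipoq do not overlap, while those of Plin4 do.

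Promoter sequence is shown for 3 members, because Adipoq and Cidec had closely similar patterns over the arrays and Plin4 did not. The sequences are from RefSeq (GRCm38.p6), each running from 250 bases before to 50 bases after a transcript start, 5' to 3' on the gene's strand. They lie at chr16:23146286-23146585 (plus strand) for Adipoq, chr6:113435711-113436010 (minus strand) for Cidec and chr17:56109733-56110032 (minus strand) for Plin4. Capitals mark CCAAT on either strand, so that ATTGG is the reverse-strand form.
Adipoq: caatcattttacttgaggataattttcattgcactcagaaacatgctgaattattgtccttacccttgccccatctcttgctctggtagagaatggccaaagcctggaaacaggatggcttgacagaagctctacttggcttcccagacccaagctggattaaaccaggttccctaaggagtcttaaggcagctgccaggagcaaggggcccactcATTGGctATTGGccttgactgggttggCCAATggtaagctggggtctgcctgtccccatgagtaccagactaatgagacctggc
Cidec: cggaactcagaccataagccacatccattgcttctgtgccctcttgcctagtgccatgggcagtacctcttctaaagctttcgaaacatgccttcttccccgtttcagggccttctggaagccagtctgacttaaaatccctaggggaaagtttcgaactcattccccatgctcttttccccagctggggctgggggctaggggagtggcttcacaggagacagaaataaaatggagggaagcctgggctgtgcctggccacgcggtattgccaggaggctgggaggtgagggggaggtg
Plin4: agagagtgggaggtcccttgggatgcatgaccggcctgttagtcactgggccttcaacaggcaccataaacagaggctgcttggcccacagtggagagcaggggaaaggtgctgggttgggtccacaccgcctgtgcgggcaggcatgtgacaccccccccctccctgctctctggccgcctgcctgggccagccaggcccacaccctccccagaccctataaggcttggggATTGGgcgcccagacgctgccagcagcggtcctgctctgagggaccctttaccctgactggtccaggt
The table of promoters held 10 entries for 7 of the 10 members. Searched on both strands, CCAAT had 3 matches in Adipoq, 1 in Plin4 and 0 in this Cidec window, and 37.4% of 32851 promoters of the same length held it. The nuclear receptor half-site AGGTCA had 0 matches in these 3 windows and was held by 16.3% of promoters. The direct repeat of that half-site with a spacer of 1 base (DR1), which overlaps it, also had 0 matches and was held by 0.0396%. The sterol element TCACNCCAC (1.24% of promoters), the E-box CACGTG (7.15%) and the TATA box TATAAA (13.6%) had 0 matches in them as well. In the Pparg windows AGGTCA had 1 match in 2 of 3.

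Among the adipokines, Adipoq encodes adiponectin, a hormone secreted by adipocytes. Its signals were 632.1, 235.6 and 245.7 in the masseter, in the order of the sample numbers, against 227.4, 109.4 and 106.5 in the tibialis anterior, and the same order is kept below. Sample 1 was the highest of both muscles, and the lowest masseter sample lay just above the highest tibialis anterior sample. The difference was 1.26 ± 0.17 (limma adjusted p = 0.0167), or 2.40-fold, and it was 1.47, 1.11 and 1.21 within the numbered pairs. In an unpaired fit the call ended (1.26 ± 0.41, adjusted p = 0.228). In unpaired fits with 1 array left out, the difference ran from 0.80 without masseter 1 (adjusted p = 0.411) to 1.62 without tibialis anterior 1 (adjusted p = 0.177).

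Retn encodes resistin, another adipokine of mouse fat. Its signals were 187.1, 114.6 and 104.2 in the masseter and 112.3, 104 and 57.3 in the tibialis anterior. The muscles overlapped, with masseter 3 between tibialis anterior 1 and 2. The difference of 0.58 ± 0.22 did not pass (adjusted p = 0.307), although its sign was the same in 3 of 3 pairs (0.74, 0.14 and 0.86). In unpaired fits with 1 array left out, it ran from 0.27 without tibialis anterior 3 to 0.76 without tibialis anterior 1, and was 0.32 without masseter 1.

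Of the droplet proteins, Cidec helps droplets fuse and grow in white fat. Its signals were 101.9, 46.5 and 46.1 in the masseter and 37, 19.6 and 26 in the tibialis anterior. The muscles did not overlap, and 2 of the 3 tibialis anterior values lay under the filter level of 28.6. The difference of 1.18 ± 0.35 did not pass (adjusted p = 0.191), with a 95% interval from 0.38 to 1.98 before any adjustment. It was 0.66 with an offset of 32 added to the signals (adjusted p = 0.193).

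Plin4 encodes a perilipin that coats droplets in adipocytes and that is also found in muscle fibres. Its signals were 790.1, 829.6 and 1231.5 in the masseter and 843.4, 682.3 and 1262.4 in the tibialis anterior. Sample 3 was the highest of both muscles, and the groups overlapped throughout. The difference was 0.05 ± 0.15 (adjusted p = 0.925), with a 95% interval from -0.28 to 0.38. Its sign changed without replicate 2 (-0.06).

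Fabp4, the fatty acid carrier of adipocytes, which capillary endothelium and macrophages also make, was read by 4 probe sets, and 0 of them passed. The brightest had signals of 5106.5, 3791 and 4284.7 in the masseter and 3513.8, 2772 and 4826.2 in the limb muscle, and differed by 0.27 ± 0.16 (adjusted p = 0.537). The next had 2550.8, 2457.9 and 3073.5 against 3416.7, 3055 and 3297.3, a difference of -0.28 ± 0.13 (adjusted p = 0.399). The brightest pair of probe sets thus differed in sign. The remaining pair also differed in sign, at -0.24 ± 0.19 and 0.19 ± 0.23. Over the 6 arrays the 4 probe sets fell into pairs with Pearson correlations of 0.81 and 0.84 within a pair and from -0.87 to -0.22 across pairs. The reading of Fabp4 is therefore uncertain.

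Pparg, the transcription factor of fat cell formation, lay under the filter and was not tested. Its signals were 50.2, 4.3 and 36.6 in the masseter and 4.9, 27.8 and 6.9 in the tibialis anterior. Values within each muscle differed by 11.7-fold and 5.67-fold, and the muscles overlapped.

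Of the enzymes, Dgat2 carries out the final step of triglyceride synthesis. The signals of its brighter probe set were 605.5, 778.1 and 704.5 in the masseter and 238.8, 319.6 and 266.4 in the tibialis anterior. The muscles were far apart, and values within a muscle differed by at most 1.34-fold. Arithmetic means were 696 ± 86.6 and 275 ± 41.1 (SD, n = 3). The difference of 1.34 ± 0.15 (limma adjusted p = 0.00548) was 1.34, 1.28 and 1.40 within the pairs. It also passed in the unpaired fit (adjusted p = 0.00609) and without each array, and it did not pass with eBayes without trend (adjusted p = 0.136).

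The other Dgat2 probe set had signals of 159.1, 193.9 and 264.4 in the masseter and 166.8, 142.7 and 99.3 in the tibialis anterior. Masseter 1 lay below tibialis anterior 1, and the muscles overlapped. Its difference of 0.60 ± 0.28 did not pass (adjusted p = 0.414), with pair values of -0.07, 0.44 and 1.41. The correlation of the 2 Dgat2 probe sets over the 6 arrays was 0.70.

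Scd1 encodes a desaturase that makes monounsaturated fatty acids, a substrate of triglyceride synthesis. Its brighter probe set had signals of 1617.8, 1029.4 and 487.5 in the masseter and 542.6, 622.7 and 203.4 in the tibialis anterior. Sample 3 was the lowest of both muscles, and masseter 3 lay below 2 of the tibialis anterior samples. The difference of 1.19 ± 0.19 (limma adjusted p = 0.0266) was 1.58, 0.73 and 1.26 within the pairs. The call rests on the pairing, since without it the values were 1.19 ± 0.48 and an adjusted p of 0.347. It also ended without replicate 3 (1.15, adjusted p = 0.0656). In unpaired fits with 1 array left out, the difference ran from 0.68 without tibialis anterior 3 to 1.66 without masseter 3. It was 0.79 without masseter 1.

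The dimmer Scd1 probe set was under the filter, with signals of 48.6, 44.3 and 18 in the masseter and 28.1, 16.8 and 25.6 in the tibialis anterior. The muscles overlapped, and it was not tested.

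**Figure D2:**
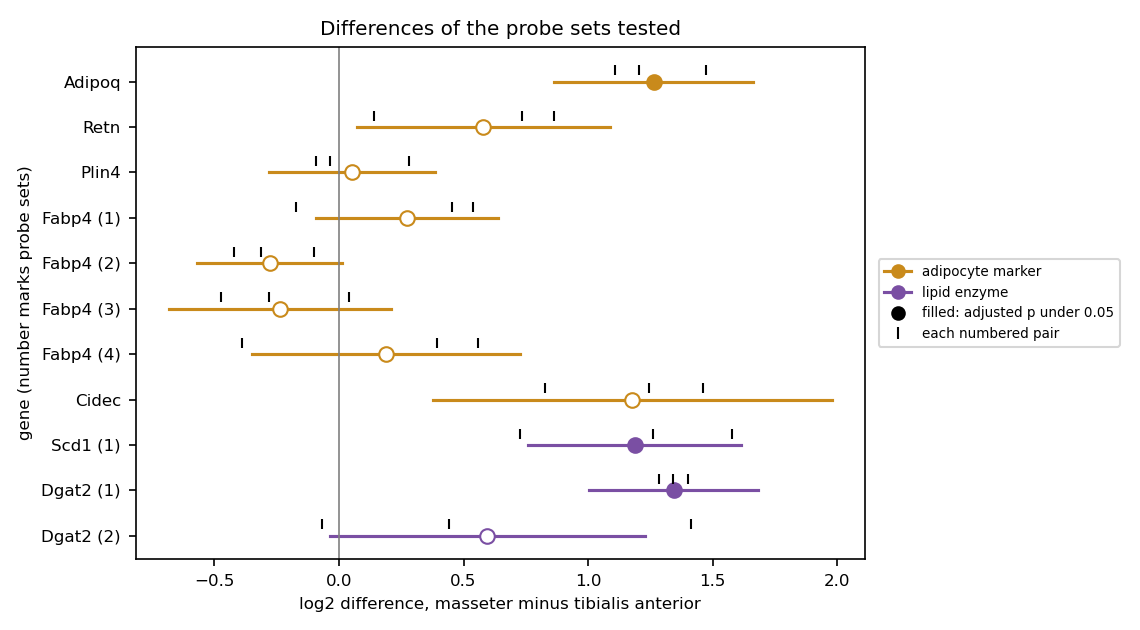
Log2 difference, masseter minus tibialis anterior, of the 11 probe sets tested, with the unadjusted 95% interval of limma. Filled circles passed an adjusted p of 0.05, and black ticks are the 3 numbered pairs. The ticks of Dgat2 (1) lie between 1.28 and 1.40, and the intervals of Plin4 and of all 4 Fabp4 probe sets include 0.

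Differences varied among the markers. Of the 11 probe sets tested, 9 had a difference above 0, as had 52.9% of all probe sets tested, and 5 were higher in the masseter in all 3 pairs, where the share of all was 18.7%. The muscles did not overlap in 3 of 11, against 17.8% of all. At an unadjusted p under 0.05 there were 5, against 13.1%. The median difference was 0.23 over the 8 marker probe sets, 1.19 over the 3 enzyme probe sets and 0.02 over all. With the brightest probe set of each gene, the medians were 0.58 over 5 marker genes and 1.27 over both enzyme genes.

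The enzymes were set against the markers by the log2 ratio of their brightest probe sets on each array, for 10 ratios. The ratio of Dgat2 to Plin4 was 1.29 higher in the masseter, and that of Dgat2 to Fabp4 was 1.07 higher, each in 3 of 3 pairs and with no overlap between the muscles. For both the exact two-sided permutation p was 0.1, the smallest that 3 arrays against 3 allow, and 0.5 after Benjamini-Hochberg adjustment over the 10. The permutations did not use the pairing. The ratio of Dgat2 to Adipoq shifted by 0.08 (exact permutation p = 0.8), and that of Scd1 to Adipoq by -0.08 (exact permutation p = 1). These tests cannot show that the enzymes and the markers differed, nor that Dgat2 and Adipoq did not.

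Some members followed each other over the arrays and others did not. Over the 6 arrays the log2 signals of Adipoq and Cidec had a Pearson correlation of 0.98, those of Retn and Scd1 0.95 and those of Adipoq and Retn 0.86. Dgat2 correlated with Adipoq at 0.58 and with Plin4 at 0.03, and Plin4 correlated with Scd1 at -0.69. These values share the same 6 arrays and include the difference between the muscles, and they are given as a description.

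**Figure D3:**
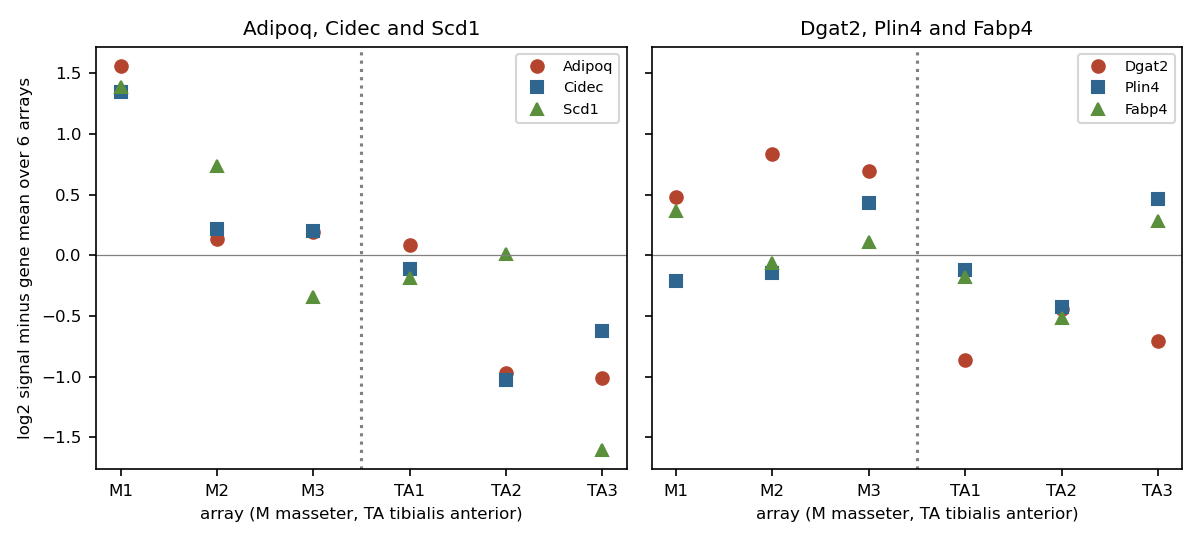
Log2 signal of 6 members (brightest probe set) minus its mean over the 6 arrays, by array. Adipoq, Cidec, Scd1 and Fabp4 are highest in masseter 1, whereas Dgat2 is high in the 3 masseter arrays and low in the 3 tibialis anterior arrays, and Plin4 and Fabp4 do not separate the muscles.

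Other genes of fat cells and of triglyceride metabolism were described from 5 lists, by the brightest probe set of each gene. They held 77 genes, of which 65 had a probe set and 52 could be tested. By limma, 0 of 52 passed in either direction, against 1.37% of 8316 genes, and paired SAM also gave 0. At an unadjusted p under 0.05 there were 16 of 52, against 13.9% of all genes tested, with 12 higher in the masseter (7.35% of all) and 4 lower (6.57% of all). The median difference was 0.16 over the 52 genes and 0.02 over all genes tested.

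Of the triglyceride synthesis genes, 0 of 11 tested passed, with a median of -0.03. Gpam, which adds the first fatty acid to glycerol phosphate, had signals of 2850.2, 3742.7 and 6302.2 in the masseter and 2842.1, 2827.7 and 2939.9 in the tibialis anterior. Masseter 3 stood high, while masseter 1 was level with the tibialis anterior (0.50 ± 0.20, adjusted p = 0.319). Lpin1, the phosphatidate phosphatase of muscle, had a difference of -0.60 ± 0.14 (adjusted p = 0.0929), and Agpat3, an acyltransferase, one of -0.59 ± 0.20 (adjusted p = 0.262). The lowest p in the list was that of Agpat5, another acyltransferase, whose muscles did not overlap (1.28 ± 0.25, adjusted p = 0.061). Acsl4, which activates fatty acids, did not overlap either (0.77 ± 0.21, adjusted p = 0.152). Dgat1, which catalyses the same step as Dgat2, had mean signals of 97.5 and 99.8 (-0.03 ± 0.22, adjusted p = 0.971). Agpat5, Acsl4 and Dgat1 were chosen after their values were seen.

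Of the genes for fatty acid synthesis and desaturation, 0 of 13 passed, with a median of 0.01. The brightest were the elongase Elovl5 (0.05 ± 0.17, adjusted p = 0.934), the carboxylase Acacb (-0.56 ± 0.19, adjusted p = 0.247) and the transcription factor Srebf1 (-0.14 ± 0.16, adjusted p = 0.794). Fasn, the fatty acid synthase, was chosen after its values were seen, with signals of 226.1, 219.1 and 57.1 in the masseter and 60.5, 134.7 and 46.9 in the tibialis anterior. As with Scd1, sample 3 was the lowest of both muscles (0.96 ± 0.31, adjusted p = 0.224). Also chosen afterwards were the values farthest from 0 in each direction, those of the elongase Elovl6 (1.22 ± 0.34, adjusted p = 0.157) and the malic enzyme Me1 (-0.60 ± 0.21, adjusted p = 0.261).

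Among genes of droplets and lipolysis, 0 of 12 passed, with a median of 0.20 and 11 values above 0. Fitm1, which helps form droplets in muscle, had a difference of 0.18 ± 0.13, Pnpla2, the first lipase of triglyceride breakdown, 0.06 ± 0.14, and its inhibitor G0s2 0.26 ± 0.22. Of the uptake genes, 0 of 9 passed, with a median of 0.10. Lpl, the lipase that frees fatty acids in capillaries, had 0.35 ± 0.12 (adjusted p = 0.261), the muscle carrier Fabp3 -0.25 ± 0.13 and the lipoprotein receptor Vldlr -0.25 ± 0.13. Of the other adipocyte genes, 0 of 8 tested passed and 9 lay under the filter, with a median of 0.14 over those tested. The brightest were Cav1 of caveolae (-0.08 ± 0.14), the glucose transporter Slc2a4 (0.07 ± 0.20) and the glycerol phosphate dehydrogenase Gpd1 (-0.36 ± 0.23), all of which muscle also expresses.

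**Figure D4:**
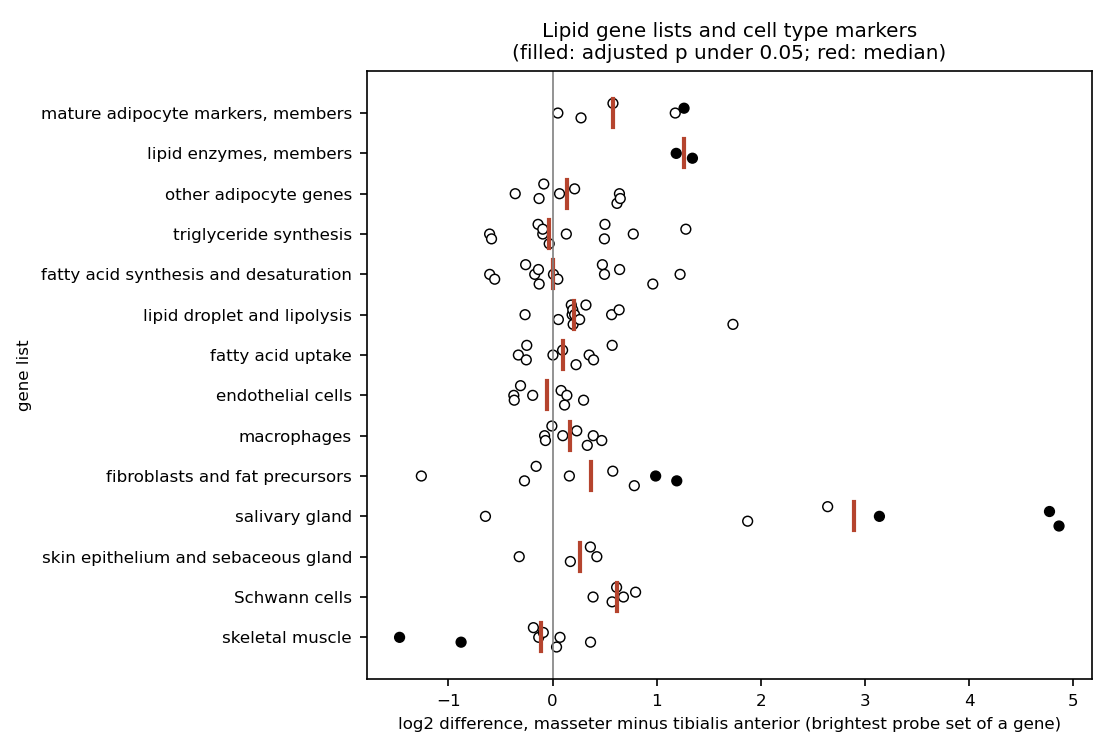
Log2 difference, masseter minus tibialis anterior, of each gene tested in 14 lists, with the brightest probe set per gene. Filled points passed an adjusted p of 0.05 and red bars are medians. Adipoq, Scd1 and Dgat2 are the filled points among the members, the 5 lipid lists below them have 0, and the salivary list reaches the highest differences.

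Markers of other cells were read beside these results. Of the fibroblast and fat precursor genes, 2 of 8 were higher in the masseter and 0 lower, where 0.709% of all genes tested were higher and 0.661% lower. They were Cd34, a surface protein of precursors and endothelium (0.99 ± 0.18, adjusted p = 0.0427), and the matrix gene Dpt (1.19 ± 0.19, adjusted p = 0.0267). The list's median was 0.37, with 5 values above 0 and 3 below. Its value farthest from 0 was that of the collagen gene Col1a1, which was in the other direction and did not pass (-1.26 ± 0.38, adjusted p = 0.2), and Dlk1 (-0.27) and Col3a1 (-0.16) were also below 0. The summed signal of that list ran from 5667 to 6266 in the masseter and from 4118 to 5459 in the tibialis anterior. Its part in the differences of Adipoq, Scd1 and Dgat2 was not tested. In whole muscle, fewer cells of a type and less RNA per cell cannot be told apart.

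The summed signal of the salivary list was 46338 in masseter 1 and lay between 2402 and 4893 on the other 5 arrays. Of its 6 tested genes, 3 (Pip, Smr3a and Chia1) were higher in the masseter and 0 lower. In that order, their signals were 8070.6, 10655.6 and 10789.9 in masseter 1 and 563.6, 487.6 and 333.2 in masseter 2. They were 24.2, 42.1 and 24.6 in masseter 3 and 72.4, 376.1 and 126.4 in tibialis anterior 1. Smr2, the brightest gene of the list, was in the other direction and did not pass (-0.64 ± 0.25, adjusted p = 0.327). Among the members, masseter 1 was the highest array for Adipoq, Retn, Cidec and Pparg, both probe sets of Scd1 and 2 of Fabp4. It was not the highest for Plin4, Dgat2 or the rest of Fabp4. How often masseter 1 was the highest over all probe sets was not counted. The part of the salivary signal in the members' differences was not tested. Without replicate 1, that is without both samples of that number, the paired fit gave 1.16 for Adipoq (adjusted p = 0.0317) and 0.99 for Scd1 (adjusted p = 0.0448). That fit does not remove the salivary signal, because it keeps masseter 2. In tibialis anterior 2 the signals of Pip, Smr3a and Chia1 were 20.7, 58.7 and 10.5. Without masseter 1 alone, the unpaired fit gave 0.80 (adjusted p = 0.411) and 0.79 (adjusted p = 0.59), where with all arrays it gave 1.26 (adjusted p = 0.228) and 1.19 (adjusted p = 0.347). For Dgat2 masseter 1 was the lowest masseter array.

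Of 8 endothelial and 8 macrophage genes tested, 0 passed, with medians of -0.05 and 0.17. Their summed signals overlapped between the muscles, from 1153 to 1316 and from 995 to 1525 for the endothelial list and from 819 to 1172 and from 650 to 926 for the macrophage list. Of 5 Schwann cell genes 0 passed, with a median of 0.61 and sums of 1173 to 1259 in the masseter and 732 to 819 in the tibialis anterior. Of 4 skin genes 0 passed, with a median of 0.27 and sums of 262 to 387 and 222 to 336. The muscle genes of both tissues were bright, with sums of 96124 to 120490 in the masseter and 130050 to 131190 in the tibialis anterior. These sums did not overlap, and that of masseter 1 was the lowest. Of 8 muscle genes tested, 2, Myh4 and Actn3, were lower in the masseter. The cell type genes named here were chosen after their values were seen. The 3' to 5' ratio of the Gapdh control probe sets, a sign of RNA integrity, was 2.66 ± 0.23 in the masseter against 1.94 ± 0.11 in the limb muscle (SD, n = 3, exact permutation p = 0.1, the smallest possible). That of the Actb control probe sets was 2.96 ± 0.34 against 2.70 ± 0.11 (SD, n = 3, exact permutation p = 0.3). The part of these markers and of RNA integrity in the members' differences was not tested.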

How the data were processed

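For each array the authors deposited a linear intensity of every probe set. MAS5 and GCOS, with no version, are named in the submitters' processing notes, and their settings are not stated in those notes. Detection calls were not used. No further scaling was applied. Symbols came from the platform annotation, checked by gene identifier: of 22690 probe sets, 20380 had 1 symbol, 691 several, 1555 none and 64 were controls. Signals under 1 were set to 1 and put on the log2 scale. Controls and probe sets under the 40th percentile of mean log2 signal were left out, which kept 13576. Differences were fitted in R 4.3.3 by limma 3.58.1 (lmFit, eBayes with trend), two-sided, with the sample number as a block because the design text describes paired comparisons, and with Benjamini-Hochberg adjustment. The procedure was run on simulated data with normal noise and a built-in effect of sample number. That run does not test whether the pairing holds in these samples. Figures used matplotlib 3.10.9.

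The members, gene lists and tests were chosen with earlier results of these data known. All members are named; of each lipid list, genes past the threshold and the 3 brightest; and for likeness, genes with the highest correlation with the markers (5), Dgat2 (3) and Scd1 (3). The alternatives were no block, other filters, eBayes without trend, quantile normalization, an offset of 32, paired SAM and leaving out each pair or array.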

Additional observations from a re-analysis of the deposited data

How the results depend on the processing

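The number of member probe sets that passed, 3, was 1 without the replicate block, 1 with paired SAM and 0 with eBayes without trend. Over all 13576 probe sets 138, 65 and 13 passed in these settings, in that order, against 160 in the fit reported. For the marker probe sets alone, 1 became 0 under each of these 3 settings. Adipoq and Scd1 kept their differences of 1.26 and 1.19, but their adjusted p was 0.228 and 0.347 without the block, 0.169 and 0.247 with eBayes without trend and 0.0625 and 0.115 with SAM. Dgat2 (1.34) passed in 15 of 16 alternatives and ended with eBayes without trend (adjusted p = 0.136). With 1 pair or 1 array left out, the single arrays in fits without the block, the member count ran from 1 to 3, the marker count from 0 to 1 and the count over all probe sets from 47 to 188. The differences ran from 0.80 to 1.62 for Adipoq and from 0.68 to 1.66 for the brighter Scd1 probe set. They ran from 1.25 to 1.46 for the brighter Dgat2 probe set and from 0.19 to 0.93 for the other. The enzyme median minus the marker median, 0.96, ran from 0.37 (without tibialis anterior 3) to 1.24. Plin4, near 0, ran from -0.15 to 0.30 with a pair or array left out, and changed sign without replicate 2 (-0.06), without masseter 3 (-0.15) and without tibialis anterior 2 (-0.15). No filter, the filter at the 60th percentile, quantile normalization and the offset changed no member call. The cause of the changes was not tested. The deviations of same-numbered samples from their muscle means correlated at 0.04, 0.15 and 0.10, and those of differently numbered samples from -0.16 to 0.05. The pairing was taken from the design text, and no source used here says that a number marks 1 mouse. Cidec, Pparg and the dimmer Scd1 probe set had signals near the filter level, where small signals give imprecise ratios.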

Other observations

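Some fat cell genes, chosen after their values were seen, had low signals in both muscles. Lep, the adipokine leptin, had signals of 8.9, 3.4 and 17.7 in the masseter and 15.1, 4 and 1.6 in the tibialis anterior. Ucp1, the uncoupling protein of brown fat, had 100.7 in masseter 1 and from 6 to 32.3 on the other 5 arrays. Pck1, which serves glycerol synthesis in fat, had 57.5, 15.6 and 37.8 in the masseter and 10, 11.9 and 1.7 in the tibialis anterior. The Pck1 signals of the muscles did not overlap. Each of these genes lay under the filter and was not tested.

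Over the 6 arrays, the genes whose log2 signal was most like the mean of the 5 marker genes tested were Actg1, Acss1, Polr1c, Cggbp1 and Auh, with Pearson correlations of 0.98. Those most like Dgat2 were Lamtor1, Dvl1 and Ahctf1 (0.99 each), and those most like Scd1 were Cd44, Add3 and Mrpl44 (0.99). Of 8309 genes compared, 28, 73 and 37 correlated above 0.95 with these 3 patterns, so with 6 arrays many genes come close to them.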
